A study of Mus musculus with 18 samples.

Results

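The 9 genes described here are Fmo1, Lrrn1, C1qtnf3, Hjv, Fam107a, Lix1, Klf8, Acox2 and Ppef1, of 19938 genes analysed. They were selected on 2 measured values: in differentiated C2C12 cells their array signal rose when PIP4K2B was depleted, and it was lower in depleted cells that carried KK-TAF3 in place of WT-TAF3. The choice therefore used the differentiated arrays, and the values of the 9 genes on those arrays are given as a description with no test. The arrays of etoposide-treated cells had no part in the choice, and for the 9 genes tests are reported on those arrays only. None of the 9 encodes a part of the contractile apparatus, although Hjv is known to be made in skeletal muscle, so that calling all of them non-muscle genes would go beyond what is known of them.

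C2C12 cells are mouse myoblasts of an established line, and they fuse into myotubes in low serum. In every group the cells' own TAF3 had been depleted with shRNA and replaced by murine TAF3 in stably transduced cultures, so no group is an unmodified C2C12 culture. The 3 arms were WT-TAF3 without depletion of PIP4K2B (the control), WT-TAF3 with sh-PIP4K2B, and KK-TAF3 with sh-PIP4K2B. KK-TAF3 is a mutant in a polybasic stretch that has lost binding to phosphoinositides. Each arm was measured after differentiation for 2 days in low serum and, separately, after etoposide at 10 µM for 7 hours, with 3 arrays in each of the 6 groups. No KK-TAF3 cells without sh-PIP4K2B were among the 18 arrays, so the effect of depletion within KK-TAF3 cells was not measured. Values are log2 signals from RMA, a method that corrects background, equalises the distributions of the arrays and summarises the probes of a transcript, and a difference of 1 on this scale is a 2-fold change. The arrays hold RNA of whole cultures, in which fewer cells of a type and less RNA per cell cannot be told apart.

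PIP4K2B is a kinase that phosphorylates PtdIns5P, a low-abundance phosphoinositide that is also found in the nucleus. TAF3 is a subunit of TFIID, the complex that binds core promoters and brings RNA polymerase II to them, and its PHD finger binds the histone mark H3K4me3 at active promoters. TAF3 is known in muscle from studies of the formation of myotubes. The 9 genes belong to unrelated families. Fmo1 oxidises drugs and other small molecules, Acox2 is a peroxisomal oxidase of branched fatty acids and bile acid intermediates, and Ppef1 is a protein phosphatase with calcium-binding EF hands. C1qtnf3 is a secreted relative of adiponectin, Hjv (hemojuvelin) is a BMP co-receptor that controls hepcidin and so iron uptake, and Lrrn1 is a leucine-rich repeat membrane protein known from the developing nervous system. Fam107a binds actin and is induced by stress and glucocorticoids, Klf8 is a Krueppel-like zinc finger factor, and Lix1 is named after its expression in the developing limb.

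Since TFIID acts at core promoters, the bases just before the start site are shown for 5 of the genes. RefSeq promoters of mouse build GRCm38.p6 were matched for 7 of the 9 genes, in 11 windows of 250 bases before a start, and Fmo1 and Hjv had no match. The last 100 bases before the start are printed from 5′ to 3′ on the strand of the gene, and capitals mark the letters TATAAA or an E-box, CANNTG, the motif that myogenic factors of the MyoD family are known to bind. C1qtnf3 and Lrrn1 show a promoter with TATAAA close to the start and one without, Lix1 is shown as one of the strongest rises, and Acox2 and Fam107a because they lie next to each other on chromosome 14.
C1qtnf3, chr15:10952232-10952331, plus strand: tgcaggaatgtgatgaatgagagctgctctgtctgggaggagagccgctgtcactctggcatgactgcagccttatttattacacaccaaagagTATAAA
Lrrn1, chr6:107529626-107529725, plus strand: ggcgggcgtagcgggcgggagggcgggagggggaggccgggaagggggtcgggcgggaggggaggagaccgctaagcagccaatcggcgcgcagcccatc
Lix1, chr17:17402586-17402685, plus strand: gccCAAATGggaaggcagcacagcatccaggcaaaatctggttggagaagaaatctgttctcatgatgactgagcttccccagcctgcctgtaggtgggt
Acox2, chr14:8259020-8259119, minus strand: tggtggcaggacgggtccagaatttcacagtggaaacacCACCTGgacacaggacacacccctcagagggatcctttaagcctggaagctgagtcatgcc
Fam107a, chr14:8309780-8309879, minus strand: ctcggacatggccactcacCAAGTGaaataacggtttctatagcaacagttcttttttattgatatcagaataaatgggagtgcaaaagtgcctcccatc

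No motif searched for was in all 11 windows. Both strands were searched over the 250 bases. TATAAA was found in 2 of the 11 windows, against 12.4% of 32851 mouse promoter windows of the same length. In C1qtnf3 it lay 6 bases before the annotated start and in Ppef1 244 bases before it. An E-box stood in 9 of the 11 windows and in at least 1 window of each of the 7 genes, against 66.2% of all windows, and the form CAGCTG in 1 window, that of Klf8, against 13.0%. CACCC, a core of the sites of Krueppel-like factors, was found in 8 windows of 4 genes against 52.0%, GGGCGG in 3 windows against 32.7% and CCAAT in 2 against 33.8%. Some windows of Fam107a overlapped almost wholly, so the same E-box and the same CACCC were counted there more than once. A MEF2 site was in none of the windows and in 0.508% of all, and a CArG box was in 1 window of Klf8 and in 1.47% of all. The C1qtnf3 window held 49.2% G and C and the Lrrn1 window 68.0%, around a median of 52.4% over all windows.

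In differentiated cells the WT-TAF3 sh-PIP4K2B group had the highest signal of the 6 groups for each of the 9 genes, and its 3 arrays did not overlap those of the next group. Fmo1 moved most on depletion. Its 3 control arrays read 9.17, 9.22 and 9.47, the WT-TAF3 sh-PIP4K2B arrays 11.08, 11.10 and 11.13, and the KK-TAF3 sh-PIP4K2B arrays 10.13, 10.19 and 10.21. The KK-TAF3 arrays thus stood between the other groups, with a log2 value 0.92 below WT-TAF3 sh-PIP4K2B and 0.89 above the control. Lix1 was placed in the same way. It read 7.75, 7.96 and 8.11 in the control, 9.17, 9.19 and 9.20 in WT-TAF3 sh-PIP4K2B cells and 8.52, 8.69 and 8.71 in KK-TAF3 cells. The decrease in KK-TAF3 cells amounted to 50.9% of the rise on depletion for Fmo1 and 43.9% for Lix1, both taken on the log2 scale.

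**Figure D1:**
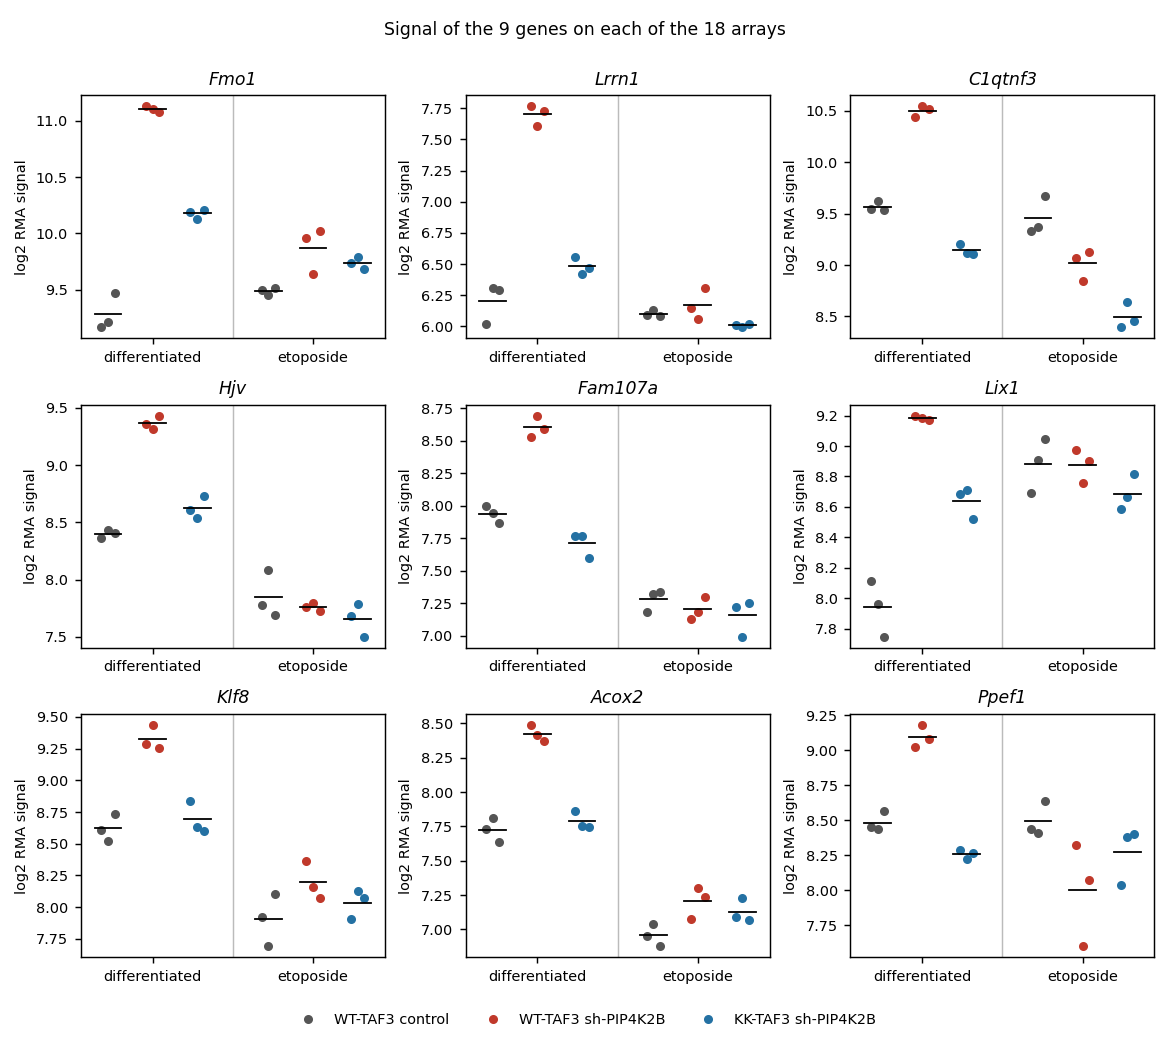
Log2 RMA signal (vertical axes) of each of the 9 genes on the 18 arrays, in one panel per gene with its own scale; points are arrays and horizontal bars are the means of 3 arrays. In differentiated cells the 3 WT-TAF3 sh-PIP4K2B arrays (red) lie above every other array of every gene, whereas after etoposide the groups lie close together for most genes.

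Lrrn1 had the second largest rise. It read 6.02, 6.29 and 6.31 in control arrays, 7.61, 7.73 and 7.77 in WT-TAF3 sh-PIP4K2B arrays and 6.42, 6.47 and 6.56 in KK-TAF3 arrays. The KK-TAF3 value remained a little above the control, by a log2 value of 0.28, and no array of either group crossed into the other. Groups without overlap in this direction were found for 5195 of all 19938 genes. Hjv behaved alike, with means of 8.40 ± 0.03, 9.37 ± 0.06 and 8.63 ± 0.09 (SD, n = 3) in the same order. For these genes the decrease in KK-TAF3 cells was 81.4% (Lrrn1) and 76.7% (Hjv) of the rise.

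Klf8 and Acox2 were at about the control level in KK-TAF3 cells. Klf8 had means of 8.62 ± 0.11 in control, 9.33 ± 0.10 in WT-TAF3 sh-PIP4K2B and 8.69 ± 0.13 in KK-TAF3 cells (SD, n = 3). Acox2 had means of 7.73 ± 0.09, 8.43 ± 0.06 and 7.79 ± 0.06 (SD, n = 3). The KK-TAF3 and control arrays overlapped for both genes. The sign of the small Klf8 difference, 0.07 as measured, turned to -0.11 with the median signal of each array as a covariate.

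For C1qtnf3, Fam107a and Ppef1 the KK-TAF3 arrays lay below the control arrays. Groups without overlap in this direction were common, at 3973 of all 19938 genes. C1qtnf3 read 9.53, 9.55 and 9.62 in the control, 10.44, 10.51 and 10.54 in WT-TAF3 sh-PIP4K2B cells and 9.11, 9.12 and 9.21 in KK-TAF3 cells. Its decrease in KK-TAF3 cells, a log2 value of -1.35, exceeded its rise of 0.93, at 145.3% of it. The KK-TAF3 arrays did not reach the control arrays of C1qtnf3, which they undercut by 0.42. Fam107a had means of 7.93 ± 0.07, 8.60 ± 0.08 and 7.71 ± 0.10 (SD, n = 3), a decrease of 133.3% of the rise. Ppef1 read 8.43, 8.45 and 8.57 in the control, 9.02, 9.08 and 9.18 in WT-TAF3 sh-PIP4K2B cells and 8.22, 8.26 and 8.29 in KK-TAF3 cells, a decrease of 136.7% of the rise.

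Over the 9 genes the difference on depletion ran from 0.61 (Ppef1) to 1.82 (Fmo1), or 1.53-fold to 3.52-fold, and that of KK-TAF3 against WT-TAF3 from -0.55 (Lix1) to -1.35 (C1qtnf3). All 9 were past the threshold in both comparisons, as their choice required. With the array median as a covariate, Klf8 (0.51) and Fam107a (0.55) were no longer past it on depletion. Lix1 was no longer past it for KK-TAF3 against WT-TAF3 when any 1 of 5 arrays was left out (replicate 1, 2 or 3 of WT-TAF3 sh-PIP4K2B, or replicate 1 or 3 of KK-TAF3 sh-PIP4K2B). The threshold was an adjusted p under 0.05 in limma with a change above 1.4-fold, a log2 value of 0.485, and 0.762% of all genes passed it upward on depletion (0.391% downward) and 0.226% downward for KK-TAF3 against WT-TAF3 (0.316% upward). Both comparisons share the 3 WT-TAF3 sh-PIP4K2B arrays, so a high reading on those arrays enters a rise and a decrease alike. Between KK-TAF3 sh-PIP4K2B and the control, which do not include those arrays, the 9 values ran from -0.42 to 0.89 with a median of 0.07, against a median of 0.00 over all genes. The largest of the 9 values there were those of Fmo1 at 0.89 and Lix1 at 0.70, given as a description. In that comparison 0.873% of all genes were past the threshold upward and 0.441% downward. Just inside the fold limit for KK-TAF3 against WT-TAF3 stood Lix1 at -0.55, and just outside it were Trdn, a protein of the calcium release unit of muscle, at -0.47, the adhesion receptor Adgrg1 at -0.46 and Srl, a calcium-binding protein of the sarcoplasmic reticulum, at -0.44.

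Measures of the perturbation itself were also read in these groups. Pip4k2b, the targeted gene, read 10.69 ± 0.01 in control, 9.55 ± 0.09 in WT-TAF3 sh-PIP4K2B and 9.86 ± 0.04 in KK-TAF3 sh-PIP4K2B cells after differentiation (SD, n = 3). Its level was thus higher in KK-TAF3 than in WT-TAF3 depleted cells by 0.31 (SE 0.05, limma adjusted p = 0.0206), with no overlap of arrays, though under the fold limit. Taf3 read 8.77 ± 0.10, 8.77 ± 0.05 and 8.60 ± 0.03 in the same order, and its KK-TAF3 arrays lay below both other groups. Neither difference passed the threshold (-0.17 each, SE 0.06, limma adjusted p = 0.211 against WT-TAF3 sh-PIP4K2B and 0.0547 against the control). Arrays without overlap in these directions were found for 1608 and 3973 of all 19938 genes. The median signal of an array was lower in WT-TAF3 sh-PIP4K2B (7.25 to 7.33) than in control cells (7.35 to 7.41), with 7.27 to 7.35 in KK-TAF3 cells. The part of these differences in the values of the 9 genes was not tested.

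The mean of the muscle markers was highest in WT-TAF3 sh-PIP4K2B cells after differentiation and lowest in KK-TAF3 cells, although single markers had other orders (Myod1 and Des were highest in KK-TAF3 cells, and Myl1 and Tnnt3 lowest in the control). The mean log2 signal of 9 skeletal muscle markers (Myod1, Myog, Des, Ckm, Acta1, Myh3, Myl1, Tnnt3 and Mymk) was 8.97 ± 0.03 in the control, 9.34 ± 0.03 in WT-TAF3 sh-PIP4K2B and 8.65 ± 0.05 in KK-TAF3 sh-PIP4K2B cells (SD, n = 3). The lowest and the highest array were 8.94 and 9.001 in the control, 9.31 and 9.36 in WT-TAF3 sh-PIP4K2B and 8.60 and 8.69 in KK-TAF3 cells. On depletion 2 of the 9 passed the threshold, the myosin light chain Myl1 at 0.95 and the fast troponin Tnnt3 at 0.83, and none passed it downward. Acta1 (0.47), Mymk (0.41), Myh3 (0.40) and Myog (0.25) were higher but under the fold limit (limma adjusted p = 0.012, 0.0083, 0.0068 and 0.043). The values of Ckm, Myod1 and Des were 0.065, 0.0048 and -0.053. In KK-TAF3 against WT-TAF3 cells 6 of the 9 fell. The values were -1.57 for the fusion factor Mymk, -1.18 for the actin Acta1, -1.02 for the regulator Myog, -0.93 for the embryonic myosin Myh3, -0.81 for Myl1 and -0.57 for Tnnt3. The markers not past the threshold were the creatine kinase Ckm at -0.42, the regulator Myod1 at 0.20 and the intermediate filament desmin (Des) at 0.12. The calls of Myl1 were less stable, since the one in KK-TAF3 cells was lost when any 1 of 5 arrays was left out (replicate 2 or 3 of either depleted arm, or replicate 2 of the control) and the one on depletion with the array median as a covariate. After etoposide none of the 9 markers passed the threshold in any comparison, and their mean ranged from 8.58 to 8.60, from 8.47 to 8.63 and from 8.41 to 8.48 in the same order of arms. RMA signals have no zero, so none of the markers can be called absent. The part of muscle differentiation in the values of the 9 genes was not tested.

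Some of the 9 genes are known from other tissues, and markers of those tissues were compared. None of 5 fat cell, 5 hepatocyte, 5 kidney tubule, 5 cartilage and 4 macrophage markers passed the threshold in any of the 6 comparisons. Their medians on depletion in differentiated cells were -0.18, -0.11, -0.21, -0.24 and -0.06. Of 5 neuron markers only Stmn2, a regulator of microtubules, was past it. It was higher on depletion in differentiated cells by 0.90, and against the control in KK-TAF3 cells by 1.22 after differentiation and by 0.78 after etoposide. Between KK-TAF3 and WT-TAF3 depleted cells after differentiation Stmn2 had a value of 0.33 (SE 0.07, limma adjusted p = 0.0596). All 9 genes had negative values there because they were chosen for it, so nothing is read from the contrast in sign.

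On the arrays of etoposide-treated cells, which the choice did not use, none of the 9 genes passed the threshold on PIP4K2B depletion, where 0.221% of all genes were higher and 0.366% lower. The differences were positive for 4 genes and negative for 5, from -0.49 to 0.38, with a median of -0.01 against 0.02 over all genes. With no adjustment of the p-value, and the fold limit kept, 1 of the 9 passed at 0.05, namely Ppef1, and it was lower. Over all genes 188 passed at that setting, 67 of them higher and 121 lower.

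Fmo1 had the largest positive difference. Its arrays read 9.46, 9.50 and 9.52 in the control and 9.65, 9.96 and 10.02 in WT-TAF3 sh-PIP4K2B cells, without overlap. The difference was 0.38 (SE 0.10, 95% interval 0.16 to 0.60, limma adjusted p = 0.130). Without the second WT-TAF3 sh-PIP4K2B array it was 0.50 and past the threshold (limma adjusted p = 0.0333). Acox2 was the other gene whose depleted arrays all lay above the control arrays, by 0.25 (SE 0.09, 95% interval 0.05 to 0.45, limma adjusted p = 0.373). Groups that do not overlap in this direction were found for 6.93% of all genes. Klf8, at 0.29 (SE 0.12, 95% interval 0.04 to 0.55, limma adjusted p = 0.412), had overlapping arrays.

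C1qtnf3 and Ppef1 lay on the opposite side from differentiated cells. C1qtnf3 read 9.33, 9.37 and 9.67 in etoposide-treated control arrays and 8.85, 9.07 and 9.13 in WT-TAF3 sh-PIP4K2B arrays. The difference was -0.44 (SE 0.11, 95% interval -0.69 to -0.19, limma adjusted p = 0.120). Ppef1 read 8.41, 8.44 and 8.64 in the control and 7.60, 8.07 and 8.32 in depleted cells, a difference of -0.49 (SE 0.16, 95% interval -0.84 to -0.15, limma adjusted p = 0.262), in which the array at 7.60 stood apart from the other two. Without that array the difference was -0.295. For both genes every depleted array was below every control array, as was so for 8.02% of all genes. Neither decrease passed the threshold.

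The other 4 genes stayed near 0. The difference on depletion was 0.07 (95% interval -0.12 to 0.26) for Lrrn1, -0.01 (-0.24 to 0.23) for Lix1, -0.08 (-0.29 to 0.13) for Fam107a and -0.09 (-0.33 to 0.15) for Hjv, and the arrays overlapped for each. Lrrn1 read between 6.06 and 6.31 in depleted cells and between 6.08 and 6.13 in the control. After etoposide Lrrn1, Hjv and Fam107a had signals below that of the median gene. The sign of the Lix1 and Hjv values turned when single arrays were left out. Their intervals included 0 and excluded a 1.4-fold change in either direction. For all 9 genes the upper limit of the interval after etoposide was below the value measured in differentiated cells. The genes were chosen for high differentiated values, which favours this outcome. The comparison was therefore not tested, and no conclusion is drawn from it.

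**Figure D2:**
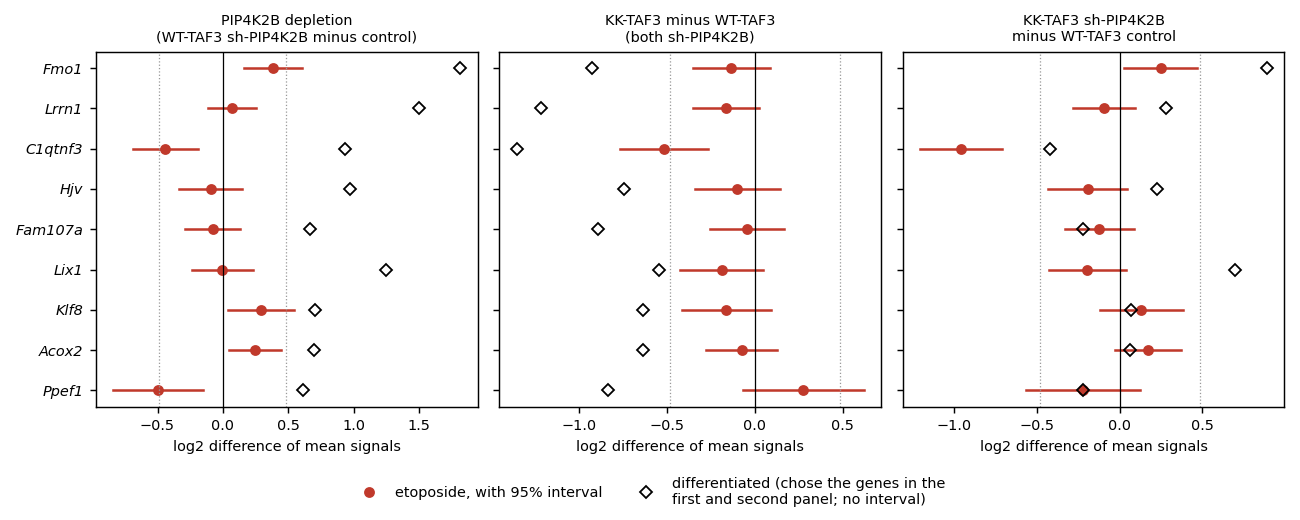
Log2 differences of mean signals (horizontal axes) for each of the 9 genes in 3 comparisons; red points and lines are etoposide-treated cells with 95% intervals from limma, open diamonds are differentiated cells without an interval because those values chose the genes, and dotted lines mark 1.4-fold. The diamonds lie far to the right of the red points on depletion and far to the left of them for KK-TAF3 against WT-TAF3, and only C1qtnf3 is past the threshold after etoposide, in the right panel.

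KK-TAF3 against WT-TAF3 after etoposide likewise gave none of the 9 genes past the threshold, where 0.0251% of all genes were lower and 0.201% higher. The differences were negative for 8 of the 9, from -0.05 (Fam107a) to -0.52 (C1qtnf3), and positive for Ppef1 at 0.27, with a median of -0.14 against -0.01 over all genes. C1qtnf3 stood out by size. Its KK-TAF3 arrays read 8.39, 8.46 and 8.64, below every WT-TAF3 array, and the difference was -0.52 (SE 0.11, 95% interval -0.77 to -0.27, limma adjusted p = 0.147). In a fit of all 18 arrays together, in which the differentiated arrays contribute to the estimate of the spread, it was past the threshold (limma adjusted p = 0.00851). Lrrn1 was the only other gene without overlap, with KK-TAF3 arrays at 5.99, 6.01 and 6.02 and a difference of -0.16 (SE 0.09, limma adjusted p = 0.606). Arrays without overlap in this direction were found for 3.9% of all genes, and in the other direction for 6.89%. The intervals of the 8 genes other than C1qtnf3 included 0, and Pip4k2b did not differ between these groups past the threshold (0.17, SE 0.12, limma adjusted p = 0.652).

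C1qtnf3 was the one gene of the 9 past the threshold in any comparison of etoposide-treated cells. In KK-TAF3 sh-PIP4K2B cells its difference from the control was -0.96 (SE 0.11, 95% interval -1.21 to -0.71, limma adjusted p = 0.00187), or 1.94-fold. All 3 KK-TAF3 arrays were below all 3 control arrays. The call held in every alternative run, with values from -1.03 to -0.85 and adjusted p-values up to 0.0115. Among all genes 0.241% were lower and 0.627% higher in this comparison. The means of C1qtnf3 after etoposide were 9.46 ± 0.18 in control, 9.02 ± 0.15 in WT-TAF3 sh-PIP4K2B and 8.50 ± 0.13 in KK-TAF3 sh-PIP4K2B cells (SD, n = 3), and neither difference between neighbours in this order passed the threshold alone. The remaining 8 genes differed from the control by -0.22 to 0.25 in KK-TAF3 cells after etoposide, and none of them was past the threshold.

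Between treatments, signals were lower after etoposide than after differentiation in WT-TAF3 sh-PIP4K2B cells for all 9 genes, by 0.31 (Lix1) to 1.61 (Hjv) as log2 sizes, with no array of one treatment within the other. This is the group whose high differentiated signal chose the genes, so the differences are a description. In control cells the treatments differed in both directions. Lix1 was higher after etoposide by 0.94 and Fmo1 by 0.21, Ppef1 differed by 0.01, C1qtnf3 and Lrrn1 by -0.11 and -0.10, and Hjv, Fam107a, Klf8 and Acox2 by -0.55 to -0.77. Control arrays of the treatments overlapped for Fmo1, Lrrn1, C1qtnf3 and Ppef1. Lix1 therefore reached in etoposide-treated control cells (8.69, 8.91 and 9.05) a level above that of differentiated KK-TAF3 cells on average, and its 3 arms after etoposide overlapped. Hjv, Fam107a, Klf8 and Acox2 were lower after etoposide in all 3 arms, with every array of one treatment below every array of the other. How many of all genes were separated between treatments in this way was not counted, so the separation cannot be called particular to these genes. The treatments were also different cultures in different media, and etoposide, an inhibitor of topoisomerase II that breaks DNA, was not compared with untreated cells here.

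How the 9 genes varied together also differed in appearance between treatments. Over the 9 differentiated arrays Pearson's r was above 0 for all 36 pairs of genes, from 0.61 to 0.99 with a median of 0.89, which the choice of genes fixes in large part. Over the 9 etoposide arrays r ran from -0.79 (Acox2 and Ppef1) to 0.70 (C1qtnf3 and Lix1) with a median of 0.08, and 22 of the 36 pairs were above 0. The arrays of a treatment share their normalization and 3 arms, so these correlations describe the arrays and carry no test.

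**Figure D3:**
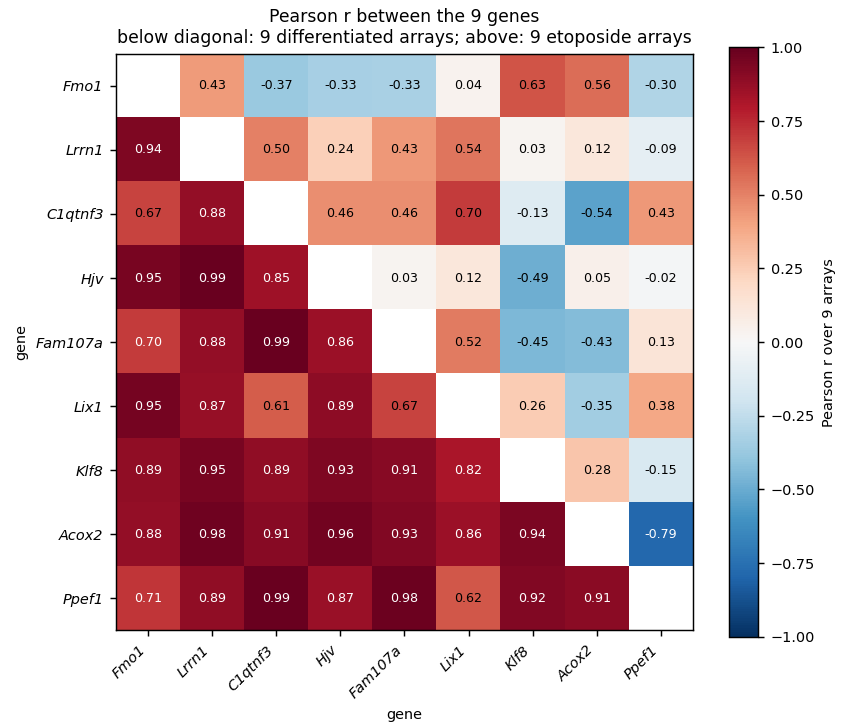
Pearson's r between each pair of the 9 genes over arrays, below the diagonal over the 9 differentiated arrays and above it over the 9 etoposide arrays; red is positive and blue negative. All 36 differentiated values are positive (median 0.89), and the etoposide values run from -0.79 to 0.70 around a median of 0.08.

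By the same rule of thresholds in differentiated cells, 18 of 19938 genes rose on depletion and had a lower signal with KK-TAF3, and the 9 genes are among them. The others were Sprr2b, Glipr1, Pdlim3, Myl1, Tnnt3, Rad54b, Casq2, Tnnt2 and Tnnc1. Of these, 6 belong to muscle: troponins Tnnt2, Tnnt3 and Tnnc1, the myosin light chain Myl1, the calcium store protein Casq2 and the actinin-binding protein Pdlim3. Their differences on depletion spanned 0.62 (Tnnc1) to 1.01 (Pdlim3), within the span of the 9 genes. Sprr2b, a small proline-rich protein of epithelia, had the largest difference of the whole table, 4.11 on depletion and -3.79 for KK-TAF3 against WT-TAF3. After etoposide Sprr2b was higher on depletion by 2.25 (SE 0.13, limma adjusted p = 3.17e-06) and lower in KK-TAF3 cells, with a value of -2.36 (SE 0.13). It was 1 of 2 genes in the table past the threshold in both directions in etoposide-treated cells, and none of the 9 genes was. Glipr1 was higher on depletion after etoposide by 0.71 (SE 0.17, limma adjusted p = 0.0753), and the DNA repair gene Rad54b by 0.44 (SE 0.09, limma adjusted p = 0.0411), which is under the fold limit.

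**Figure D4:**
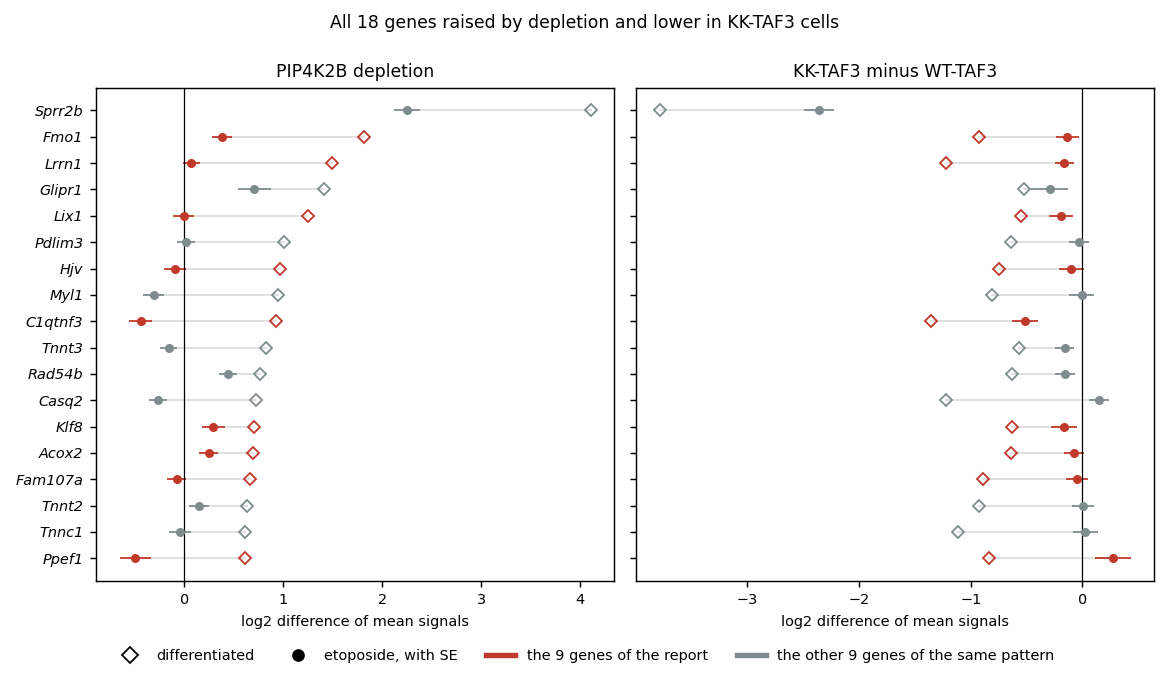
Log2 differences of mean signals (horizontal axes) for all 18 genes past the threshold upward on depletion and downward for KK-TAF3 against WT-TAF3 in differentiated cells; diamonds are differentiated cells, points are etoposide-treated cells with the standard error from limma, red marks the 9 genes and grey the others. Sprr2b keeps both differences after etoposide (2.25 and -2.36), while most other points lie near 0.

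The genes whose profile was most like the mean of the 9 were found by Pearson's r over the 18 arrays, after the mean of each treatment had been subtracted, among genes brighter than the median gene. They were Pdlim3 (r = 0.95), Tnnt3 (0.92), Tnnt2 (0.86), Srl (0.86), Gpt2 (0.83) and Chrna1 (0.83). Tnnt2 and Tnnt3 are troponins and Chrna1 is a subunit of the acetylcholine receptor of muscle, while Gpt2 is an aminotransferase of mitochondria. Over the 9 etoposide arrays alone r was 0.60 for Pdlim3, 0.60 for Tnnt3, 0.29 for Tnnt2, -0.55 for Srl, 0.69 for Gpt2 and 0.21 for Chrna1. The likeness over all arrays thus came largely from the differentiated arrays that chose the genes.

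The relatives of the 9 genes in the same families were compared next. In no comparison did more than 0.873% of all genes pass the threshold in one direction, so few calls are to be looked for in short lists. Of the other flavin monooxygenases 4 were measured, and none passed the threshold in any comparison. Fmo2 and Fmo4, which lie on either side of Fmo1 on chromosome 1, differed on depletion in differentiated cells by -0.27 (SE 0.12) and -0.24 (SE 0.11), where Fmo1 differed by 1.82. Of 16 other leucine-rich repeat proteins of the LRRN, LRRTM, FLRT and LRFN families, none passed either, and Lrrn2, Lrrn3 and Lrrn4 had values of -0.29, -0.01 and -0.34. None of 16 C1q and TNF related genes was past the threshold, with C1qtnf1 at -0.15 and C1qtnf6 at 0.01, and none of 12 genes of the EF-hand and calcium-regulated phosphatases was, with Ppef2 at -0.07. Fam107b differed by 0.19 (SE 0.05, limma adjusted p = 0.0336), which is under the fold limit, and none of 7 partners of Fam107a passed. Lix1l, the paralogue of Lix1, had a value of -0.21 (SE 0.05).

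Among the pathways around the 9 genes, single members passed the threshold. In the list of 38 genes of hemojuvelin, BMP signalling and iron, the transferrin receptor Tfrc rose on depletion in differentiated cells by 0.57, and the ligand Bmp4 fell by 0.60. In KK-TAF3 cells against the control Tfrc and Id2, a target of BMP signalling, were higher after differentiation by 0.53 and 0.70, and Id1, another such target, after etoposide by 0.52. The median of the list was -0.04 on depletion in differentiated cells, where that of all genes was -0.02. Rgma, a relative of Hjv and also a BMP co-receptor, had a value of -0.39 (SE 0.06, limma adjusted p = 0.00475), under the fold limit and opposite in sign to Hjv. The Tfrc call on depletion was lost with the array median as a covariate (0.45), and that of Id1 when any of several single arrays was left out.

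Of 24 other Krueppel-like and Sp factors, Klf12 was higher in KK-TAF3 than in WT-TAF3 depleted cells after differentiation, by 0.53 (SE 0.06, limma adjusted p = 0.00252), opposite to Klf8 with -0.64. With all 18 arrays in the fit the Klf12 call was lost. Klf15, a factor known for muscle metabolism, was lower in KK-TAF3 cells than in the control, with a value of -0.49, a call that was lost in several alternatives. None of the 24 passed on depletion in either treatment. Of 39 peroxisomal and bile acid genes around Acox2, Phyh, which starts the breakdown of phytanic acid, was the only one past the threshold. It was higher in KK-TAF3 than in WT-TAF3 depleted cells after etoposide by 0.76 (SE 0.12, limma adjusted p = 0.0152), and higher than in the control in both treatments, by 0.56 and 0.63, and the calls after etoposide were each lost when any of several single arrays was left out. The relatives Acox3 and Acoxl had values of 0.08 and -0.26 on depletion in differentiated cells, where Acox2 had 0.70. Of 10 genes around Lix1 and the Hippo pathway only Ccn2, a target of YAP, passed. It was lower on depletion in differentiated cells (-0.67), and lower than the control in KK-TAF3 cells after differentiation (-1.05) and after etoposide (-0.67), while its family member Ccn1 and the factors Yap1 and Wwtr1 did not pass.

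The position of the 9 genes on the chromosomes was compared through their nearest protein-coding neighbours, up to 2 on each side in the order of RefSeq. Of the neighbours that are not among the 9, 27 were measured, and none passed the threshold on depletion or for KK-TAF3 against WT-TAF3 in either treatment. Over all genes 0.762% passed upward on depletion and 0.226% downward for KK-TAF3 against WT-TAF3 after differentiation. None among 27 is near these shares, so the count says nothing particular about position. The median of the neighbours on depletion in differentiated cells was -0.04. Acox2 and Fam107a, neighbours on chromosome 14 whose promoters are printed above, were the one pair among the 9, and they lie between Kctd6 (0.10 on depletion) and Oit1 (-0.24), which did not pass. Over the etoposide arrays r between Acox2 and Fam107a was -0.43, against 0.93 over the differentiated arrays.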

How the data were processed

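RNA of 18 C2C12 cultures was measured on Affymetrix mouse gene arrays, called biological triplicates by the study. The authors deposited log2 values made with RMA in Affymetrix Expression Console (version not stated), and they were used as deposited. The table held 35556 transcript clusters, of which 21789 had 1 gene symbol in the annotation used, 1621 had several and 12146 were not listed. The study's supplement names a later chip generation than that annotation, so gene names rest on the annotation. The cluster with the highest mean was kept for the 999 genes with several, which gave 19938 genes. Each of the 9 genes had 1 cluster. Array medians ran from 7.25 to 7.46, and precision is limited by 3 arrays per group. The labels give 2 days of differentiation, and the series' design text gives 3.

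Tests were made with limma 3.58.1, run in R 4.3.3, on the 9 arrays of each treatment separately (6 residual degrees of freedom, prior 3.1 and 7.06), because the within-group spread was larger after etoposide (median SD of a gene 0.0952 to 0.137) than after differentiation (0.0694 to 0.073). The labels number the replicates without saying what a number shares. Same-numbered arrays were compared by the correlation of their deviations from the group means. After etoposide all 3 pairs of the control and WT-TAF3 sh-PIP4K2B deviated together (r = 0.44, 0.33 and 0.56). Those of the control and KK-TAF3 were also positive (0.17, 0.10 and 0.59), and those of the depleted arms were -0.29, -0.19 and 0.48. For the control and WT-TAF3 sh-PIP4K2B, arrays with different numbers ran from -0.45 to -0.11, all below the same-numbered pairs. Over all arms, arrays with different numbers ran from -0.49 to 0.50, so a pairing by number was not settled across the arms. The reported tests did not pair arrays, and a replicate block was run as an alternative. P-values were adjusted by Benjamini-Hochberg over all 19938 genes. Scripts were tested on simulated data. The 9 genes and all gene lists were chosen with earlier results of these data known. Named genes were the 9, their closest relatives by symbol, up to 4 genes past the threshold of each list, genes of the same pattern by size, and the 6 most like profiles. Python 3.11.15 was used for tables (pandas 2.3.3, numpy 2.4.6) and figures (matplotlib 3.10.9). Alternatives were a fit of all arrays, another prior, an unadjusted p, no fold limit, brighter genes only, every cluster, quantile normalization within a treatment, median centring, a replicate block, leaving out each array and, chosen after seeing the data, the array median as a covariate.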

Additional observations from a re-analysis of the deposited data

Results flagged for a closer look

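For 3 differences every array of the sh-PIP4K2B arm lay above every control array in differentiated cells and below every control array after etoposide. The differences between treatments were not tested, and how often such a change of side occurs over all genes was not counted. C1qtnf3 on PIP4K2B depletion was 0.93 in differentiated and -0.44 in etoposide-treated cells. Ppef1 on depletion was 0.61 and -0.49. Lrrn1 in KK-TAF3 sh-PIP4K2B cells against the WT-TAF3 control was 0.28 and -0.094. The Lrrn1 value after etoposide had an SE of 0.09 (limma adjusted p = 0.987), and Lrrn1 was below the median gene in both treatments. None of the 3 etoposide differences passed the threshold. Each single side was counted over all genes. On depletion 4356 genes lay wholly above the control in differentiated cells and 1599 wholly below it after etoposide. For KK-TAF3 against the control these counts were 5195 and 1198. For C1qtnf3 and Ppef1 the differentiated value was one that chose the gene.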

How the results depend on the processing

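The counts of the 9 genes past the threshold after etoposide were 0 on depletion, 0 for KK-TAF3 against WT-TAF3 and 1 for KK-TAF3 against the control. The first became 1 with an unadjusted p (Ppef1) and ranged from 0 to 1 when single arrays were left out. The second became 1 with all 18 arrays in the fit and 1 with an unadjusted p (C1qtnf3 in both), and stayed at 0 without any single array. The third was 1 throughout. Lrrn1 in both treatments, and Hjv, Fam107a and Acox2 after etoposide, were below the median gene and so left out with brighter genes only. An alternative cluster could not be tried, since each of the 9 genes has 1.

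Over all genes, depletion in differentiated cells gave 230 calls (152 higher), 4351 with no fold limit, 152 among brighter genes, 384 (349 higher) with arrays centred on their median and 106 (51 higher) with the array median as a covariate. KK-TAF3 against WT-TAF3 gave 108, 377 with no fold limit and 65 among brighter genes; with every cluster 67 of 144 were higher, against 63 of 108. KK-TAF3 against the control gave 262 (174 higher), 5087, 143, 453 (401 higher) with centring and 123 (63 higher) with the covariate. After etoposide depletion gave 117 (44 higher) and 188 with an unadjusted p, with 68 of 138 higher after quantile normalization, 16 of 81 after centring and 77 of 133 with the covariate. KK-TAF3 against WT-TAF3 gave 45, 81 with all 18 arrays, 104 with an unadjusted p and 23 among brighter genes, and with the covariate 33 of 43 were higher, against 40 of 45.

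Without single arrays the counts ranged from 176 to 386, 87 to 105 and 232 to 421 after differentiation, and from 50 to 212, 13 to 55 and 94 to 191 after etoposide, in the same order of comparisons. Same-numbered arrays did not deviate together after differentiation (r from -0.27 to 0.21). A replicate block gave 218, 93 and 254 calls after differentiation, without those of Myl1 (KK-TAF3 against WT-TAF3) and Klf15 (KK-TAF3 against the control), and 154, 60 and 221 after etoposide, with 0, 0 and 1 of the 9 genes. It removed no other call of a named gene and changed no call of the 9 genes after etoposide.

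The sign turned for 4 values near 0. Klf8 in differentiated KK-TAF3 cells against the control was -0.11 with the covariate and ranged from -0.0048 to 0.126 without single arrays. On depletion after etoposide Lix1 was 0.024 with quantile normalization and ranged from -0.102 to 0.077, and Hjv ranged from -0.172 to 0.023. Fam107a for KK-TAF3 against WT-TAF3 after etoposide was 0.0052 with the covariate and ranged from -0.096 to 0.035. The cause of these changes was not tested.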
